A study of Mus musculus with 4 samples.

Results

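Gstt1-high tumour cells made up 1644 of the 6773 cell barcodes in the untreated KPB25Luv library, or 24.3% (exact 95% interval 23.3 to 25.3), and 1644 of the 30090 barcodes in the 4 libraries of the study. A member was a KPB25Luv barcode with at least 5000 unique molecular identifiers (UMIs, each marking 1 captured transcript) and at most 10% of them mitochondrial. It also had at least 5 UMIs summed over the epithelial genes Krt8, Krt18 and Epcam, at least 5 UMIs of Gstt1, none of Ptprc, Cd3e, Pecam1 or Cdh5, and at most 1 of Csf1r. KPB25Luv is a murine model of triple negative breast cancer: tumour cells were injected into mammary gland number 4 of FVB/NJ females and grown to a diameter of 5 mm before the mice were assigned at random. Treated KPB25Luv mice received anti-PD1 (10 mg/kg) with aCTLA4 (100 ug) and tumours were collected after 7 days, and the untreated group is their control. The study's other model, T11-Apobec, was grown in the same gland of Balbc females and also has a treated and an untreated library. Each of the 4 groups is a single droplet 3' RNA library, so no value below has a replicate, and intervals cover counting error only. Mouse ages, the number of mice per library, the collection time of untreated tumours and whether the injected cells were a clone are not given in the sources used here.

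Gstt1 encodes a theta-class glutathione S-transferase, an enzyme that joins glutathione to reactive small molecules as a step in their removal. Krt8 and Krt18 encode the paired keratins of simple epithelia, Epcam and the claudins sit at contacts between epithelial cells, and Igfbp6 encodes a secreted protein that binds insulin-like growth factors. Carcinoma cells can lower claudins and Epcam and raise vimentin in an epithelial-to-mesenchymal transition, a program in which the Snai1 repressor is known to bind CAGGTG letters in the promoters of epithelial genes.

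Levels are given as CPM, the UMIs of a gene summed over cells and scaled to the same total of all UMIs. By claudin and Vim levels, the states of Gstt1-high cells were of 2 kinds. Apart from this, 37 members clustered with cells of high H2-Aa, an MHC class II gene, and 5 with cells of high Col1a2, a collagen gene. Whether those members are tumour cells was not tested. Most members had low claudin levels, high Vim and Gstt1 levels of 993 to 1147 CPM, and were spread over 5 states, 3 of which were set apart by cell cycle genes. A group of 56 cells had high Cldn3 and Cldn4, low Vim and a Gstt1 level of 277 CPM, against 135 CPM in T cells of the library.

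The treated KPB25Luv library held no member. It had 30369476 UMIs in 5509 barcodes, against 87677328 UMIs in the 6773 untreated barcodes, and only 38 of its barcodes passed every criterion other than the Gstt1 one, against 1918 untreated barcodes. These barcodes are called tumour-gated below. A count of 0 among 38 cells has an exact 95% interval that reaches 9.25%, against 85.7% (84.1 to 87.3) of the untreated tumour-gated cells. In the treated tumour-gated cells, 33 had no Gstt1 UMI, 3 had 1 and 2 had 4. No tumour-gated cell of the treated T11-Apobec (59 cells) or untreated T11-Apobec library (211 cells) was a member. Members shared a barcode sequence with another library in 15 cases for treated KPB25Luv, 19 for treated T11-Apobec and 37 for untreated T11-Apobec. Over all 6773 barcodes of the untreated KPB25Luv library, these numbers were 56, 71 and 125, and nothing is read from them.

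**Figure D1:**
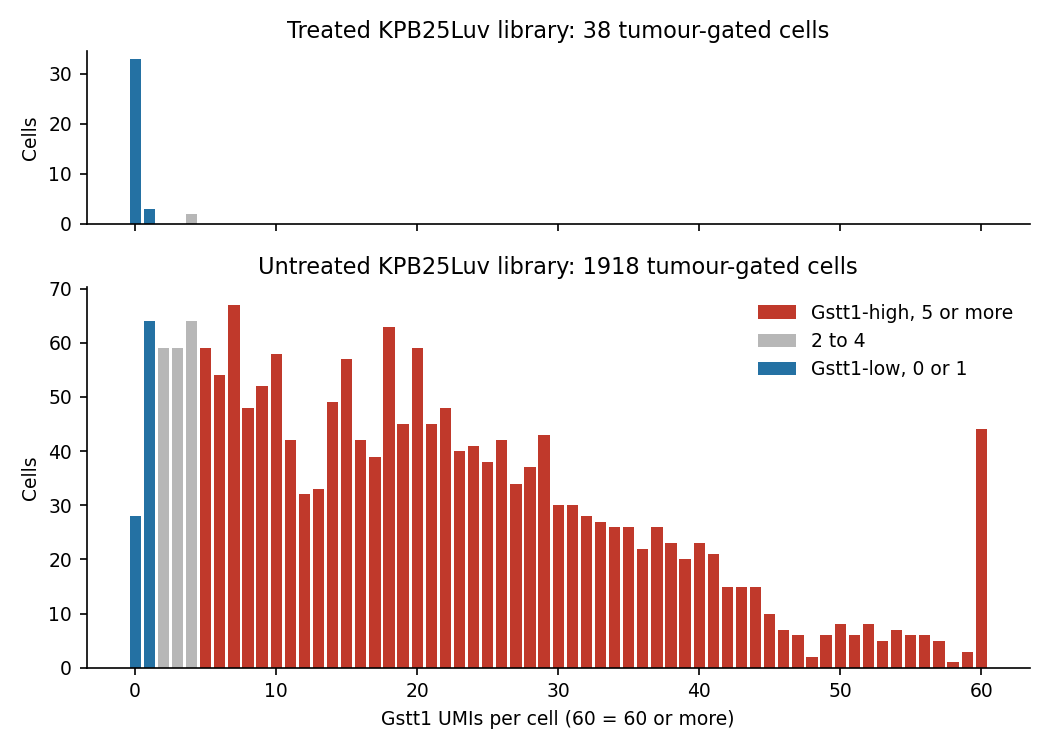
Tumour-gated cells by their number of Gstt1 UMIs in the treated (upper) and untreated (lower) KPB25Luv library, with the last bar holding cells with 60 or more. Red bars are the 1644 members, grey bars cells with 2 to 4 UMIs and blue bars cells with 0 or 1, and no treated cell reaches 5.

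The levels in the treated tumour-gated cells are given beside those of the members without a ratio, because treatment, mouse and library cannot be told apart and the members were chosen on Gstt1. Gstt1 was at 11.9 CPM (5.95 to 21.3) in the 38 treated cells, against 1043 CPM (1033 to 1054) in the untreated members. Igfbp6 was at 11.9 CPM in the treated cells and 674 CPM in the members. Krt19, a luminal keratin, was at 670 CPM in the treated cells and 5.70 CPM in the members. The untreated tumour-gated cells with 0 or 1 Gstt1 UMIs had 149 CPM of Igfbp6 and 693 CPM of Krt19 (from 13 of 92 cells), so for these genes the treated cells lay nearer to them than to the members. Gsta4 and Vim shared this order, but other genes lay nearer to the members. In treated cells, members and untreated cells with 0 or 1 Gstt1 UMIs, Csn3 was at 0, 1.29 and 219 CPM. Trf was at 2.17, 11.5 and 811 CPM and Krt8 at 1817, 1799 and 2580 CPM in these groups. Ccl2, a monocyte chemoattractant gene, had another order, with 662 CPM in the treated cells, 156 CPM in the members and 19.0 CPM in the untreated cells with 0 or 1 Gstt1 UMIs. Summed pericyte markers were at 428, 13.9 and 10.8 CPM in these groups, and summed fibroblast markers at 1120, 451 and 470 CPM. A pericyte marker UMI was seen in 42.1% of the treated cells. Whether all 38 treated cells are tumour cells was not tested.

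Members were deeply sampled, with a median of 22129 UMIs (5064 to 60882) and 4492.5 genes per cell, and a median mitochondrial share of 2.07%. Of the label's markers, Krt8 (1799 CPM over all members), Krt18 (1651 CPM) and Gstt1 were used by the rule and are no check of it, and Igfbp6, which the rule did not use, was at 674 CPM. Of the basal keratins, Krt14 was at 132 CPM in members, 59.6 CPM in the cells with 0 or 1 Gstt1 UMIs and 16.1 CPM in T cells, and Krt5 was at 0.21 CPM in members. To set these against free RNA, cells were thinned to 1000 UMIs each, and T cells of the same library (681 cells, median 2565 UMIs before thinning) served as a cell type that should lack the genes. After thinning, 63.0% of members had a Gstt1 UMI, against 13.4% of T cells. Without thinning all members had such a UMI, by the rule. Igfbp6 was seen in 43.8% of thinned members and 10.4% of thinned T cells, and Epcam in 34.2% and 6.02%. Krt19 was in 0.30% of thinned members and 0.29% of thinned T cells. Thinning makes the UMI counts equal but not the share of free RNA in them, which was not measured. Summed macrophage markers reached 917 CPM in members, against 1465 CPM in the T cells, and summed T cell markers 215 CPM, against 9939 CPM; no marker of either list outside the rule was at 0 in members, and their part in the results below was not tested.

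Promoter sequences are shown for Gstt1, which defines the cells, and for 4 epithelial genes. Of these, Cldn3 and Cldn4 have levels that separate the kinds of member described below. Epcam was used by the rule, and no level is given for Cldn7. They are RefSeq windows on GRCm38.p6, 250 bases before to 50 after the gene start, 5' to 3' on the gene's strand, and capitals mark CAGGTG or its reverse complement CACCTG.
Gstt1: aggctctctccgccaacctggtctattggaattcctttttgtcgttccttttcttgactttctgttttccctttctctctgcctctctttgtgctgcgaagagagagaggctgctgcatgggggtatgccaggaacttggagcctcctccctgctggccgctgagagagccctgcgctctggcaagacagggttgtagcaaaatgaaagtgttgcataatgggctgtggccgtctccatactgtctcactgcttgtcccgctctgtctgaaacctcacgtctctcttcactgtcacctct
Cldn4: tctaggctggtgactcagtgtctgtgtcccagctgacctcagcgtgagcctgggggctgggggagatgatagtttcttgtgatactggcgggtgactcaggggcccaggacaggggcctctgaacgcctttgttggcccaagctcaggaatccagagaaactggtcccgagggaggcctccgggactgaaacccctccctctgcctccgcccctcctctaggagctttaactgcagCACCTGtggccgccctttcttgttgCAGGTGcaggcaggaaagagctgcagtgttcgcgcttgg
Cldn3: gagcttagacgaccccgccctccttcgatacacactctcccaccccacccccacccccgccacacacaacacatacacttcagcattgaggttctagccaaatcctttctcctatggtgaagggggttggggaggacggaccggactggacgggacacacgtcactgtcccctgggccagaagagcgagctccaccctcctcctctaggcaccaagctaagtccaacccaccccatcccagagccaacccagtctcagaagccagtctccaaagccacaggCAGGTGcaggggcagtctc
Cldn7: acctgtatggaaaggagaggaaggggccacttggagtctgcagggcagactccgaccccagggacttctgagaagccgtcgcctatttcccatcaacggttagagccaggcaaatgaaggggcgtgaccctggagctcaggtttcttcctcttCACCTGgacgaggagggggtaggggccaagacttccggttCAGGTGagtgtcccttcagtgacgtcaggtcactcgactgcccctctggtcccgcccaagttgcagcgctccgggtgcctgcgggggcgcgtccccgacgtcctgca
Epcam: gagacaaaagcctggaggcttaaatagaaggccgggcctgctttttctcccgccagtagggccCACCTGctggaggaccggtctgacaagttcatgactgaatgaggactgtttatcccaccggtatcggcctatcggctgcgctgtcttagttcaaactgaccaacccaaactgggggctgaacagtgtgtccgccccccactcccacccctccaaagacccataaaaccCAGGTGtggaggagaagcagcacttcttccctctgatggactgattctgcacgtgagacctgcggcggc
The windows lie at chr10:75797682-75797981 (minus strand) for Gstt1, chr5:134946885-134947184 (minus) for Cldn4, chr5:134985964-134986263 (plus) for Cldn3, chr11:69965171-69965470 (plus) for Cldn7 and chr17:87635729-87636028 (plus) for Epcam. The letters occurred 2 times in the Cldn4, Cldn7 and Epcam windows, 1 time in the Cldn3 window and 0 times in the Gstt1 window. For Cldn7 the table has a pair of windows for different starts, and the other one holds no match. Read on both strands, CAGGTG was in a window of 17 of the 20 luminal epithelial genes with an entry, against 6098 of 27025 genes in the whole table, or 22.6%. It was in 2 of 16 mesenchymal transition genes and 3 of 30 G2/M genes. This motif was searched after the levels had been seen, and a match describes letters, not a bound site. The letters TGACNNNGC, the core that the oxidant-responsive factor Nfe2l2 is known to bind, were in neither strand of the Gstt1 window, in 4 of 26 glutathione transferase genes, in 11 of 29 glutathione and thioredoxin redox genes, and in 3781 of all 27025 genes.

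Gstt1 itself varied widely among members. The 1644 cells had 5 to 97 Gstt1 UMIs with a median of 21, and their Gstt1 level ran from 116 to 5319 CPM, with a median of 983, a 10th percentile of 467 and a 90th of 1720. After thinning every member to 5000 UMIs the count ran from 0 to 24 with a median of 5, and its variance was 1.97 times its mean, where counting alone gives 1. The raw-count criterion therefore takes in cells at a lower level when they are deep and leaves out shallow ones: the median depth was 22129 UMIs in members, 14039 in the 182 cells with 2 to 4 Gstt1 UMIs, and 10795 in the 92 cells with 0 or 1.

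Levels summed over cells moved gradually across the threshold. The 59 members with exactly 5 Gstt1 UMIs had 346 CPM of Gstt1, and the 64 cells just outside with 4 had 271 CPM. Epcam was at 707 CPM just inside and 831 CPM just outside, Vim at 1197 and 857 CPM, and Igfbp6 at 409 and 286 CPM. Cldn4 was at 72.7 CPM just inside and 135 CPM just outside. Farther in, the 58 members with 10 Gstt1 UMIs had 399.6 CPM of Epcam and 2081 CPM of Vim, against 1346 and 498 CPM in the 28 cells with none. The mix of cells changed too. A cluster with high Cldn4, described below, held 55 of the 92 cells with 0 or 1 Gstt1 UMIs. It held 96 of the 182 cells with 2 to 4 and 58 of the 1644 members. Within it Vim was at 182, 206 and 296 CPM in these classes. The part of this mix in the summed levels was not tested.

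**Figure D2:**
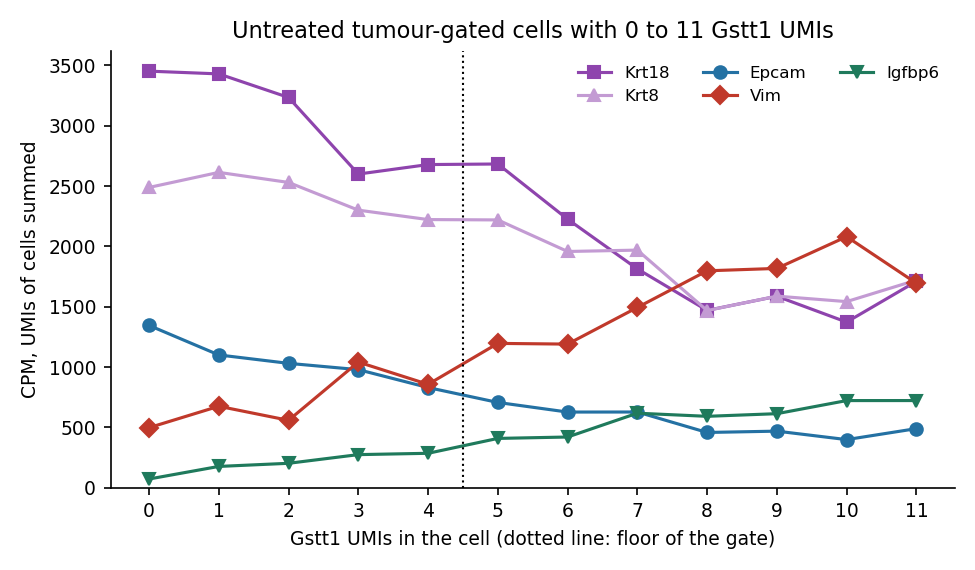
Summed levels in CPM of Krt18, Krt8, Epcam, Vim and Igfbp6 in untreated tumour-gated cells grouped by their number of Gstt1 UMIs, from 0 to 11, with the criterion between 4 and 5 as a dotted line. Epcam is at 707 CPM in cells with 5 UMIs and 831 CPM in cells with 4, and Vim at 1197 and 857 CPM.

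Against the 92 cells of the same library with 0 or 1 Gstt1 UMIs, called Gstt1-low, members had less of the epithelial junction genes and more of the cell cycle genes. Because Gstt1 chose both groups and the low cells were a mixture, the comparison is a description with no test. A gene is called higher or lower where its summed level differs by at least 1.5-fold and the exact interval of the ratio leaves out no change. Of 11235 genes with 50 or more UMIs, 1416 were called higher (12.6%) and 1735 lower (15.4%), 28.0% in all, and nothing is read from these shares.

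The low cells fell in several clusters when all 1918 tumour-gated cells were clustered together. A cluster with high Cldn4 held 58 members, 96 cells with 2 to 4 Gstt1 UMIs and 55 low cells, and is called the Cldn4 cluster. Another, led by the prolactin receptor gene Prlr, Cxcl15, Krt19 and the milk protein gene Csn3, held 1 member, 5 cells between and 13 low cells, with 2638 CPM of Csn3. A further cluster, led by H2-M2, Epsti1, Ccl22, Il4i1 and Ccl5 and with 2032 CPM of the MHC class II gene H2-Aa, held 37 members, 12 between and 14 low cells. The comparisons below are against all 92 low cells unless the 55 low cells of the Cldn4 cluster, a set added after seeing these clusters, are named. These 55, the second set, are part of the 92, and their cluster was picked for the highest Cldn4 level. Ratios of luminal and mesenchymal genes over them are tied to that choice and are no check of the others. Over that second set 1187 of 11178 genes were higher (10.6%) and 1520 lower (13.6%), and 950 of the higher and 1175 of the lower genes were called against both sets.

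The 12 highest genes were called higher in both comparisons. Both use the same members and the Cldn4-cluster low cells, so the second is no independent check. Gstt1, which the rule used, was at 1043 CPM in members and 57.8 CPM in low cells, a log2 ratio of 4.16 (3.82 to 4.55). Gsta4, an alpha-class glutathione transferase that acts on lipid peroxidation products, was at 594 CPM in members and 96.6 CPM in low cells, a log2 ratio of 2.61 (2.35 to 2.91), and 2.98 over the Cldn4-cluster low cells. Igfbp6 was at 674 CPM in members and 149 CPM in low cells, with log2 ratios of 2.17 (1.96 to 2.41) and 3.06. After thinning, Igfbp6 was seen in 43.8% of members and 9.78% of low cells, against 10.4% of T cells, although the summed level was 149 CPM (127 to 174) in low cells and 92.1 CPM (78.9 to 107) in T cells. Snai1 was at 68.5 CPM in members and 13.5 CPM in low cells, with log2 ratios of 2.29 (1.61 to 3.18) and 4.39.

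Secreted signals were also among the 12 highest. Ccl2 was at 156 CPM in members and 19.0 CPM in low cells, a log2 ratio of 3.0 (2.42 to 3.73) over all low cells and 3.03 over the Cldn4-cluster ones. The membrane-bound chemokine gene Cx3cl1 was at 164 CPM in members and 40.6 CPM in low cells, with log2 ratios of 2.00 (1.59 to 2.47) and 2.61. The interferon-induced chemokine gene Cxcl10 was at 57.7 CPM in members and 10.8 CPM in low cells, with log2 ratios of 2.35 and 2.55. The remaining genes of the 12 were Medag, an adipogenesis gene (2.90 and 4.02), the acid phosphatase gene Acpp (2.66 and 3.10), the placental gene Plac1 (2.90 and 3.21), the collagen gene Col5a3 (2.38 and 3.42) and the carbonic anhydrase gene Car13 (2.32 and 3.03).

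The 12 lowest genes did not hold against the Cldn4 cluster alone. Igfbp5 had a log2 ratio of -8.22 over all low cells, the lipocalin gene Lcn2 -7.34, Csn3 -7.40 and the transferrin gene Trf -6.14, and none of the 12 was called lower over the 55 Cldn4-cluster low cells. Krt19 had 767 UMIs in low cells, from 13 cells, and a log2 ratio of -6.92. It had 0 UMIs in the 55 Cldn4-cluster low cells. Their low ratios thus rest on low cells outside the Cldn4 cluster.

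**Figure D3:**
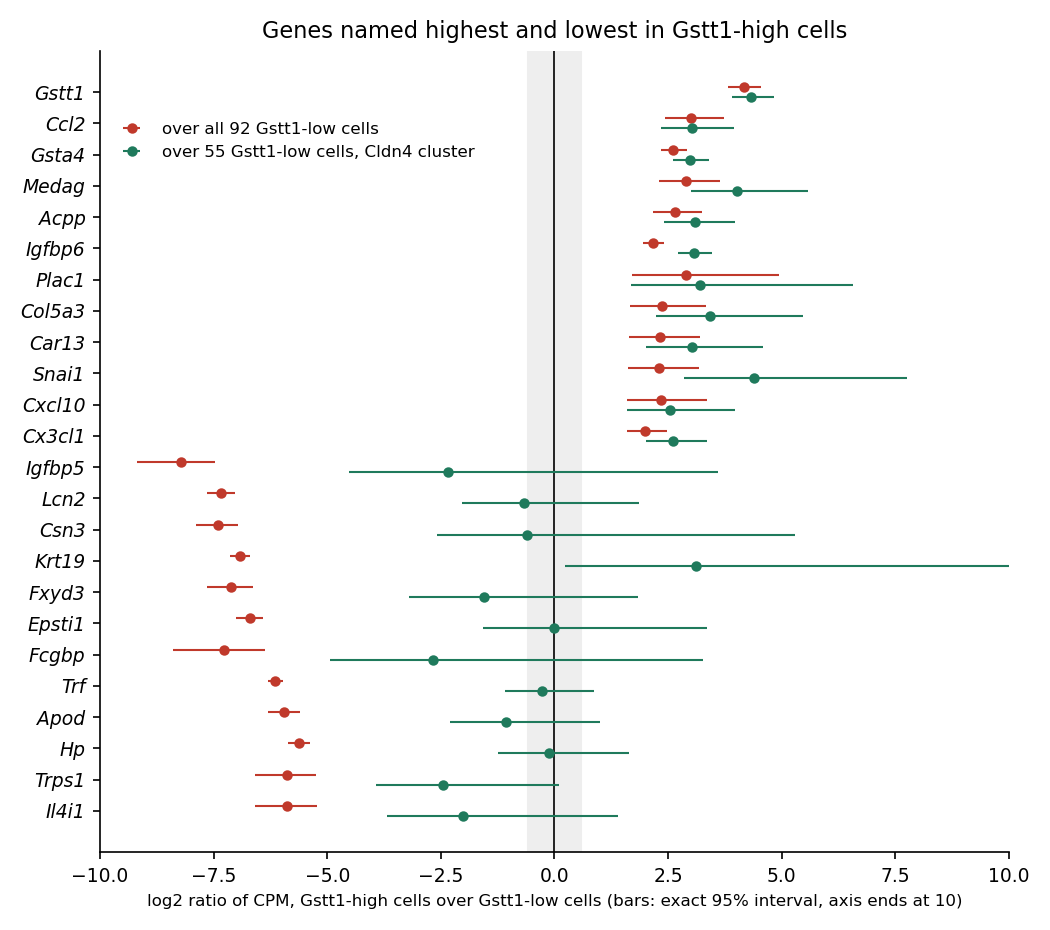
Log2 ratios of summed CPM for the 12 highest and 12 lowest genes, members over all 92 Gstt1-low cells (red) and over the 55 Gstt1-low cells of the Cldn4 cluster (green), with exact 95% intervals and a grey band for ratios within 1.5-fold. The 12 highest lie right of the band for both, while none of the 12 lowest is called lower in green.

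Epithelial identity genes were lower in members. Of 14 luminal genes tested outside the rule, 13 were lower and none higher, with a median log2 ratio of -2.85 (median of all genes -0.003). Over the Cldn4-cluster low cells, a set picked for high Cldn4, 10 of 13 were lower and 2 higher (median -2.31). Within that cluster Cldn3 was at 967 CPM in the 58 members and 1098.5 CPM in the 55 low cells. Cldn3, a tight junction claudin, was at 72.4 CPM in members and 819 CPM in low cells, a log2 ratio of -3.50 (-3.61 to -3.39). Cldn4 was at 8.86 CPM in members and 122 CPM in low cells. The surface gene Cd24a had a log2 ratio of -4.14, the EGF-family ligand gene Areg -4.40 and the keratin gene Krt7 -2.12. Among the genes the rule used, given as a description only, Epcam was at 445 CPM in members and 1168 CPM in low cells, and Krt18 at 1651 and 3436 CPM.

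Mesenchymal and matrix genes depended on which low cells were used. Vim was at 1752 CPM in members and 628 CPM in low cells, with log2 ratios of 1.48 over all low cells and 3.26 over the Cldn4-cluster ones. Of 23 mesenchymal transition genes, 6 were higher and 6 lower (median -0.35, or 0.49 with each cell thinned to 5000 UMIs) over all low cells, and 10 higher and 3 lower (median 0.71) over the Cldn4-cluster ones. Of 25 extracellular matrix genes, 5 were higher and 11 lower (median -0.66, or -0.73 with the gene at 0 in low cells at its bound), while over the Cldn4-cluster low cells 10 of 24 were higher and 5 lower (median 1.12). Fn1, the fibronectin gene, had a log2 ratio of -1.23 and the hyaluronan receptor gene Cd44 one of -1.56 over all low cells. Timp1, a metalloprotease inhibitor gene, was on the other side at 1.54, as were Col6a1 and Col6a2 at 1.31 each.

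Cell cycle genes were higher in members over both sets of low cells. The groups were cut on raw Gstt1 UMIs and differed in depth. Median UMIs were 22129 in members, 10795 in all low cells and 13114 in the Cldn4-cluster ones. Among members, state 3 (described below) with high G1/S genes was deeper than state 1 with low ones, at 27849.5 and 19311.5 UMIs. The ratios here were not matched for depth. Of 30 G1/S genes 25 were higher and none lower, with a median of 1.08, and of 34 G2/M genes 32 were higher and none lower, with a median of 1.06. Over the Cldn4-cluster low cells 20 G1/S and 19 G2/M genes were higher, with medians of 0.86 and 0.80. The mitotic kinase gene Plk1 had a log2 ratio of 2.05, Cdc20, an activator of the anaphase-promoting complex, 1.85, and Rpa2, which codes for a subunit of replication protein A, 1.72. Among 11 cell cycle inhibitor genes, 2 were higher and 5 lower, and over the Cldn4-cluster low cells 2 of 10 were higher and 4 lower. Cdkn2a, the gene of p16 and Arf, was at 1075 CPM in members and 585 CPM in low cells (0.88), Cdkn2c at 170 and 46.1 CPM (1.87), and the p53 target Cdkn1a had a log2 ratio of -2.30.

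Genes of low oxygen were lower, while genes of sugar breakdown had a smaller median difference. Of 21 hypoxia genes, 14 were lower and 1 higher (median -1.14), and over the Cldn4-cluster low cells 13 were lower and none higher (median -1.04). Ndrg1, a hypoxia-induced gene, was at 39.6 CPM in members and 502 CPM in low cells, a log2 ratio of -3.66; the glucose transporter gene Slc2a1 had one of -2.01 and Vegfa, an angiogenic factor gene, -1.42. Of 18 glycolysis genes 9 were lower, 9 uncalled and none higher (median -0.51). Over the Cldn4-cluster low cells 7 were lower (median -0.37). Their summed level was 7658 CPM in members and 8061 CPM in all low cells. Of 24 oxidative phosphorylation genes 2 were higher and none lower (median 0.36), and 3 were higher over the Cldn4-cluster low cells. The share called over all low cells was 8.33%, against 28.0% of all genes. Immediate early genes, which dissociation also induces, were lower in 15 of 26 cases with none higher (median -0.82); over the Cldn4-cluster low cells 12 were lower and 1 higher (median -0.55). Of 14 Wnt pathway genes 7 were lower with none higher (median -1.04), and over the Cldn4-cluster low cells 4 of 12 were lower (median -1.0), but the median was -0.15 when each cell was thinned to 5000 UMIs.

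Interferon and antigen presentation genes also moved with the low cells chosen. Of 16 interferon-gamma response genes 7 were higher and 2 lower (median 0.64, or 0.58 with the gene at 0 in low cells at its bound), and over the Cldn4-cluster low cells 8 were higher and none lower (median 1.57). Psmb10, an immunoproteasome subunit gene, was at 240 CPM in members and 68.6 CPM in low cells, a log2 ratio of 1.80. Of 19 MHC class I presentation genes 2 were higher and 6 lower (median -0.30), and over the Cldn4-cluster low cells 8 were higher and none lower (median 0.55). All 7 MHC class II genes were lower (median -1.82), but none of 6 was called either way over the Cldn4-cluster low cells. Summed macrophage markers moved with this list, at 917 CPM in members and 2217 CPM in all low cells; 8 of 13 macrophage genes were lower over all low cells and none over the Cldn4-cluster ones, and their part in the result was not tested.

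The glutathione transferase family did not move as a family. Of 17 tested genes apart from Gstt1, 2 were higher in members and 6 lower, with a median of -0.15 (-0.41 with the gene at 0 in low cells set to its bound), and over the Cldn4-cluster low cells 3 were higher and 5 lower. Besides Gsta4, the higher gene was Gstt3, the theta-class paralog beside Gstt1, at 115.7 CPM in members and 49.7 CPM in low cells, a log2 ratio of 1.21 (0.84 to 1.63). Reads of paralogs may have been split by the counting, so these values are uncertain. Mgst1, Mgst2 and Mgst3, the microsomal enzymes, were among the lower genes with Ptges, Gsto2 and Gstp3, and Mgst1 had a log2 ratio of -4.79. Of 29 redox genes 5 were higher and 2 lower (median 0.22). The share called was 24.1%, against 28.0% of all genes, so nothing is read from this count. The glutathione synthesis gene Gclm (0.71), Gpx8 (1.44), Srxn1 (1.04), Sod2 (0.61) and Ggct (0.90) were higher, and Gpx3 (-5.31) and G6pdx (-1.38) lower. Over the Cldn4-cluster low cells Gpx3 was higher instead, at 2.48.

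Gstt1 lies at chr10:75783813-75798584 on the minus strand. Within 2 Mb on each side, 33 other genes were tested, of which 10 were higher, 5 lower and the rest uncalled, with a median of 0.37. The share called higher was 30.3%, against 12.6% of all genes. The higher ones included Gstt3, Ddt (1.05), the chromatin remodelling gene Smarcb1 (0.84), the centrosome gene Pcnt (1.02), Col6a1 and Col6a2, and Mif, a cytokine gene near Gstt1, was uncalled at 0.20. The median over chromosome 10 was 0.02, and the autosomes lay between -0.13 and 0.14, with the X chromosome at -0.30.

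Among the 1644 members alone, clustering gave 6 states. Because the same cells were clustered, state differences are descriptions with no test, and the share called in each state is given beside its count without reading. State 1 had 508 cells (30.9%), state 2 had 414, state 3 had 354, state 4 had 262, state 5 had 56 (3.41%) and state 6 had 50. Gstt1 was at 1102 CPM in state 1, 1147 in state 2, 993 in state 3, 1041 in state 4, 277 in state 5 and 1137 in state 6. The level thus set state 5 apart from the other states, which lay within a narrow band.

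**Figure D4:**
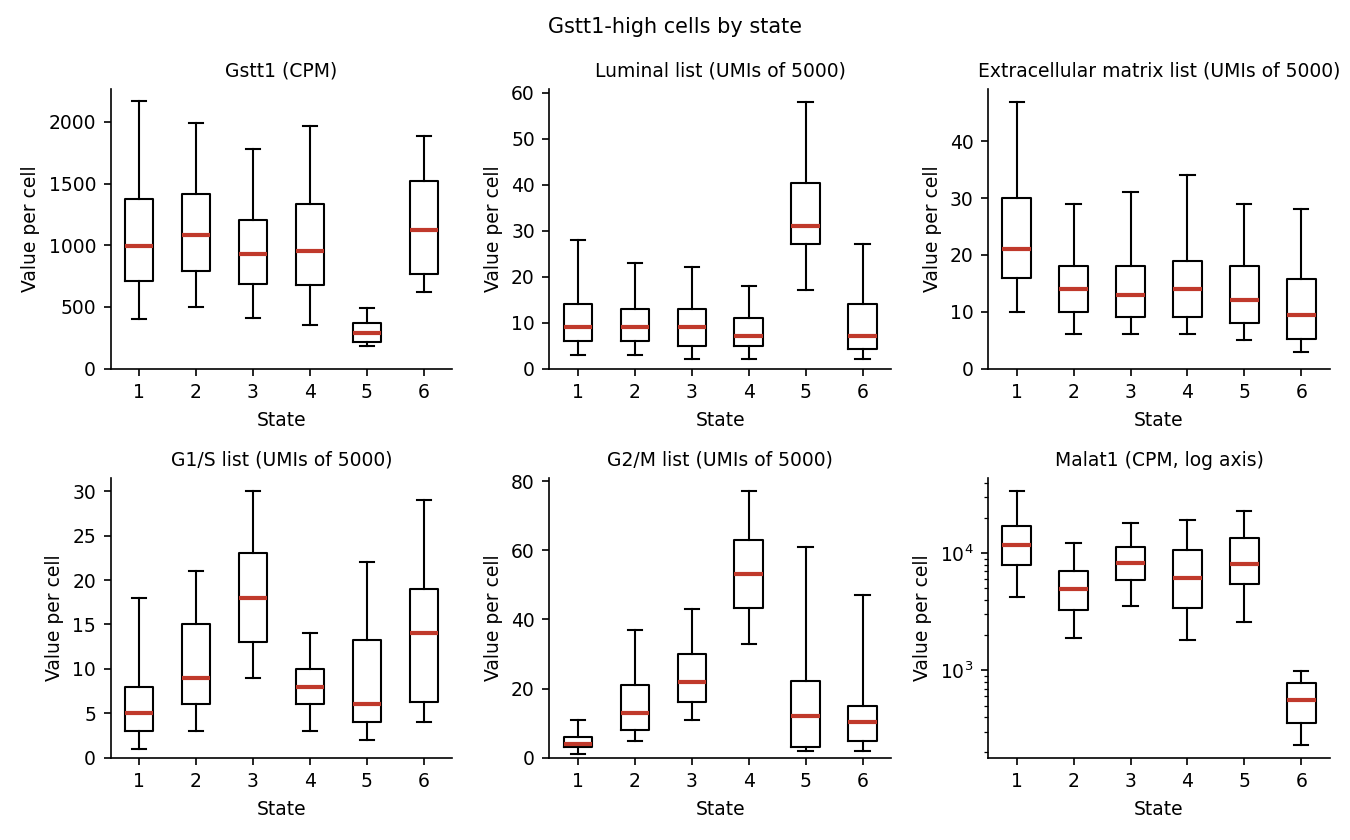
Per-cell values in the 6 states of Gstt1-high cells: Gstt1 in CPM, summed luminal, extracellular matrix, G1/S and G2/M UMIs after thinning each cell to 5000 UMIs, and Malat1 in CPM on a log axis. Boxes are quartiles with the median and whiskers reach the 5th and 95th percentiles; the median G2/M count is 53 in state 4 and 4 in state 1, and the median Malat1 level is 559 CPM in state 6.

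State 1 had the lowest levels of cell cycle genes. Compared with the other members, 968 genes were higher (8.71%) and 823 lower (7.41%) of 11112. All 34 G2/M genes were lower (median -2.81) and 27 of 30 G1/S genes were lower with none higher, and a median cell had 4 G2/M UMIs of 5000. The genes that led it were Ogn, a small matrix proteoglycan gene (107 CPM in state 1 and 20.2 CPM in the other members, a log2 ratio of 2.40), Mgp, Tcp11l2, Ccnd2, Wisp2 and Ms4a4d. Ccnd2, a D-type cyclin gene, was at 373 CPM in state 1 and 104 CPM in the others (1.85). Matrix genes Dcn (0.91) and Sparc (1.12) and Cdkn2a (1435 CPM, 0.60) were higher in state 1, as were 8 of 24 extracellular matrix genes, with 5 lower, and 8 of 26 immediate early genes with none lower. State 1 also had the highest median Malat1 level, 11746 CPM, and the smallest depth of states 1 to 5, 19311.5 UMIs.

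State 3 was led by histone genes and state 4 by mitotic genes. In state 3, 557 genes were higher (5.01%) and 615 lower (5.53%). Hist1h2ap was at 1122 CPM in state 3 and 85.4 CPM in the other members, a log2 ratio of 3.72, followed by Hist1h1b, Hist1h2ak and Hist1h1e, with the DNA repair gene Neil3 and the cohesin acetyltransferase gene Esco2. Of 30 G1/S genes 28 were higher and none lower (median 1.16), Pcna and Mcm5 at 1.27 each. In state 4, 527 genes were higher (4.74%) and 408 lower (3.67%), and all 34 G2/M genes were higher (median 1.82). Ccnb1, the mitotic cyclin gene, was at 427 CPM in state 4 and 19.2 CPM in state 1, with a log2 ratio of 2.85 over the other members, and Cdc20 and Plk1 had 2.75 and 2.71.

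The gene rule also named Col1a2, Cxcl14 and Col1a1 for state 4, and most of these UMIs came from 5 cells, 4 of them in state 4. Those members clustered apart with Meg3, Tagln, Col1a2 and Sfrp4 when all tumour-gated cells were used, and they held 75.3% of the Col1a1, 83.2% of the Col1a2 and 84.9% of the Cxcl14 UMIs of all members. Without those cells Col1a1 was at 5.30 CPM in state 4, against 114 CPM with them. The 3 others named were Sapcd2 (3.48), Psrc1 (3.60) and Kif2c (3.06), mitotic genes.

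State 2 had few genes above the others, and 66 were higher (0.594%) against 760 lower (6.84%). Its leading genes Ung, Ccnb2, Pttg1, Rangrf, Cdkn3 and Cdc6, of DNA repair, mitosis and replication licensing, had log2 ratios of 0.64 to 0.90. Of 34 G2/M genes, however, 25 were lower and 1 higher in state 2 (median -0.90). A median cell had 9 G1/S and 13 G2/M UMIs of 5000, and its Malat1 level was 4941 CPM, the lowest among states 1 to 5.

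State 5 had the highest levels of epithelial junction genes. It had 1242 genes higher (11.2%) and 1440 lower (13.0%), and 55 of its 56 cells lay in the Cldn4 cluster of all tumour-gated cells. Cldn4 was at 162 CPM in state 5 and 2.84 CPM in the other members, a log2 ratio of 5.83 (5.49 to 6.19). Cldn3 was at 974 CPM in state 5 and between 21.6 and 42.1 CPM in the other states, and Cd24a at 262 CPM (4.88). Of 13 luminal genes 12 were higher and 1 lower (median 2.23), and 5 of 8 squamous and stress keratin genes were higher (median 3.01). Other leading genes included the kinase gene Dgkk (7.45), the serine protease gene Tmprss11e (6.52), Bmp7, a BMP ligand gene (72.9 CPM in state 5 and 0.78 CPM in the others, 6.53) and Krt25 (6.30).

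Mesenchymal, interferon and chemokine genes were lower in state 5. Vim was at 214 CPM in state 5 and 1812 CPM in the other members, a log2 ratio of -3.08 (-3.25 to -2.92), and Snai1 at 5.66 CPM in state 5, with a ratio of -3.56. Of 24 extracellular matrix genes 11 were lower and 5 higher (median -1.68), Fn1 being among the higher at 1190 CPM (1.08). Ccl2 was at 12 CPM in state 5 and 161 CPM in the others (-3.70), Igfbp6 at 92.7 CPM (-2.90) and Gsta4 at 82.8 CPM (-2.88). In T cells of the library Igfbp6 was at 92.1 CPM (78.9 to 107) and Gsta4 at 56.2 CPM (46.0 to 68.1). Igfbp6 in state 5 thus had about the same CPM as in T cells. The T cells were much shallower, with a median of 2565 UMIs against 22714.5 in state 5. Equal CPM therefore does not show an equal background, and the part of free RNA was not tested. Of 16 interferon-gamma genes 12 were lower and none higher (median -1.48), and of 19 MHC class I presentation genes 11 were lower and none higher (median -1.16), with the immunoproteasome gene Psmb9 at 13.5 CPM (-2.60). Hypoxia genes were higher in 10 of 20 cases and lower in 1 (median 0.73), with Ndrg1 at 401 CPM (3.98), and the cytokine genes Inhba (389 CPM, 1.73) and Il23a (73.6 CPM, 3.93) were higher too.

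State 5 was close to the threshold. Its median cell had 6 Gstt1 UMIs, just above the criterion, while the medians of states 1 to 4 were 19 to 25. Within the Cldn4 cluster Gstt1 was at 311 CPM in the 58 members, 161 CPM in the 96 cells with 2 to 4 UMIs and 51.1 CPM in the 55 low cells. These classes were cut on Gstt1 UMIs, so the order of Gstt1 was fixed in advance and is no result. Across them Cldn4 was at 156 CPM in members, 231 CPM in the cells between and 168 CPM in low cells. Epcam was at 1020, 1220 and 1369 CPM, and Vim at 296, 206 and 182 CPM.

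State 6 was shallow and had little Malat1. Its 50 cells had a median of 8604 UMIs, and Malat1, a long non-coding RNA kept in the nucleus, was at 673 CPM in state 6 and 8879 CPM in the other members, a log2 ratio of -3.72 (-3.88 to -3.57). Of 11112 genes 1819 were lower (16.4%) and 119 higher (1.07%), and the median of all genes was -0.41. The immediate early genes Junb (96.4 CPM in state 6 and 559 CPM in the others) and Fos (17.7 CPM, a log2 ratio of -2.58) were lower, as were 21 of 26 genes of that list (median -1.72). Its leading genes, the chaperone gene Hspa8 (0.76), the mitochondrial peroxidase gene Prdx3, Rbbp4, Snrpb2, Cetn3 and Cct2, differed little from the other members. When all tumour-gated cells were clustered together, the lowest Malat1 level of any cluster was 6216 CPM, so no cluster there matched state 6. The part of depth and of RNA quality in state 6 was not tested.

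**Figure D5:**
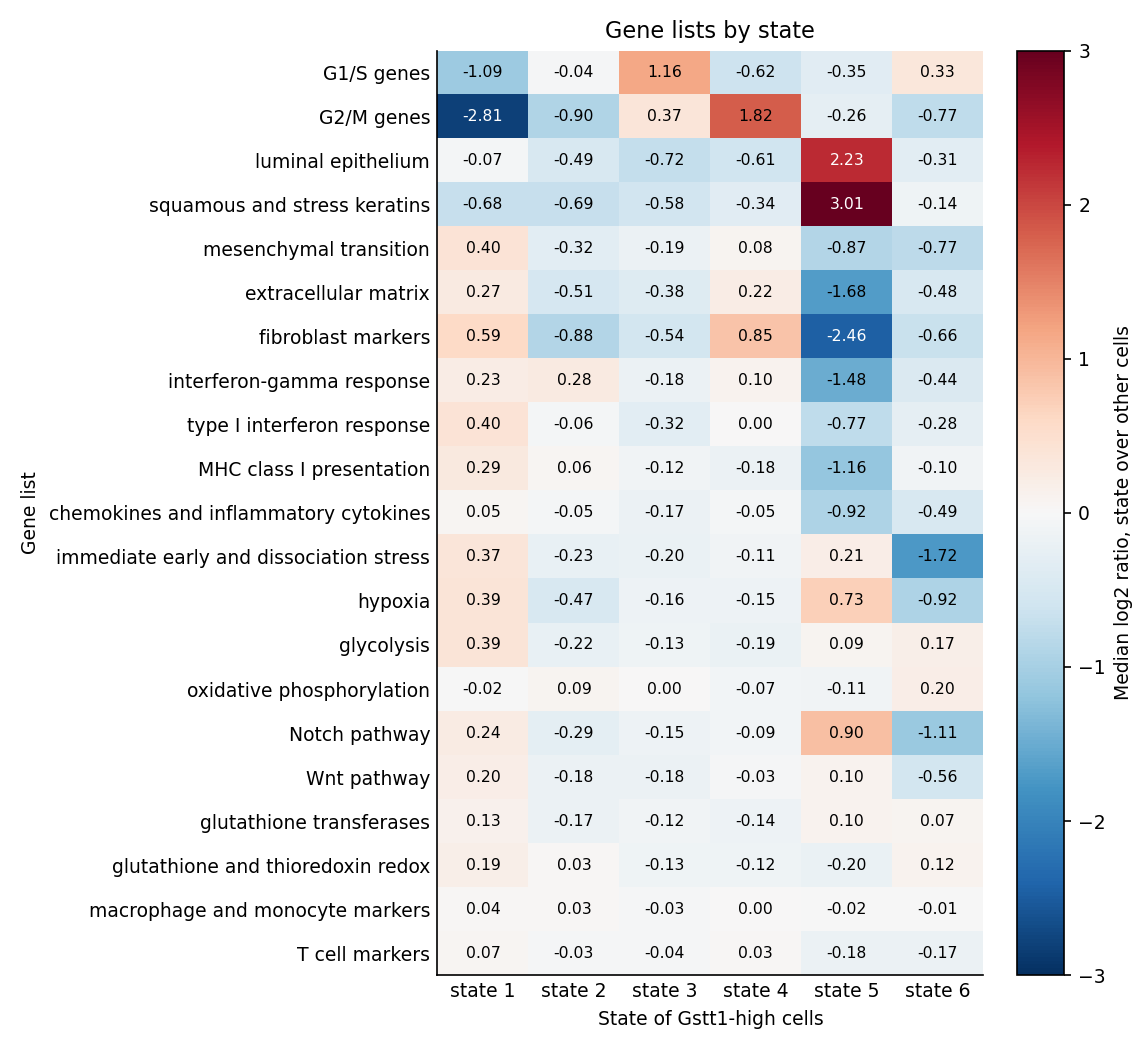
Median log2 ratio of each state over the other Gstt1-high cells for 21 gene lists. Cell cycle lists separate states 1, 3 and 4 (G2/M medians of -2.81 in state 1 and 1.82 in state 4), state 5 has the highest luminal median (2.23), and state 6 the lowest immediate early median (-1.72).

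The spread among members differed between lists. After thinning, the variance of summed G2/M UMIs was 18.3 times the mean, with a 10th percentile of 3, a median of 13 and a 90th percentile of 50. It was 14.8 for pericyte markers, 14.7 for fibroblast markers and 10.8 for extracellular matrix genes, but without the 5 members with high Col1a2 these values were 0.98, 2.32 and 6.67. It was 8.17 for glycolysis, 7.29 for chemokines, 6.76 for luminal genes (10th percentile 4, median 9, 90th percentile 21) and 4.89 for G1/S genes. Oxidative phosphorylation (1.85), redox genes (1.70) and macrophage markers (1.09) lay closer to the value of 1 that counting gives. Across members, which share 1 library and depth, Spearman's rho was 0.30 between G1/S and G2/M counts and -0.28 between G2/M and extracellular matrix counts, and between Gstt1 and luminal counts it was -0.07. Luminal and mesenchymal counts had a rho of -0.09, and of -0.04 without state 5.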

How the data were processed

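Cells of 4 droplet libraries (10x 3' v2 kit), 1 per group, were measured. The deposited files hold raw UMI counts per gene and barcode, made with Cell Ranger 3.0.2 on mm10 per the file headers. Each library was counted alone, and the cell criteria were applied to the raw counts. The members and gene lists were chosen with earlier results of these data known, and the members on the values of Gstt1 itself. Counts were summed per group of cells and scaled to CPM, and log2 ratios had 0.5 counts added to each group and exact conditional 95% intervals. Shares have exact Clopper-Pearson intervals, and the limit for a gene with a count of 0 is 3 counts. Genes with at least 50 UMIs over both groups were compared. With 1 library per group no test was made and cells are not replicates. The genes named are the rule's genes and Igfbp6, the 12 highest and the 12 lowest, ranked on that bound of the ratio's interval which lies closer to 0, with a UMI in at least 10% of cells of the higher group, up to 6 per state by the same rule, list members with the most UMIs or largest ratio, genes within 2 Mb of Gstt1 and its paralogs; state genes beyond these were chosen after their values were seen. States came from 2000 variable genes without the rule's genes, 30 components, 15 neighbours and Leiden resolution 0.5, at 10000 UMIs per cell. Doublets were scored with Scrublet but left in; removing the highest scores would have taken 367 barcodes, 78 of them members (4.74%). Python 3.11.15, scanpy 1.11.5, numpy 2.4.6, scipy 1.17.1 and pandas 2.3.3 were used, and the ratio calculation was tested on simulated data. Alternatives were other depth, Gstt1 and mitochondrial limits, thinning, other low groups, gene floors, folds and clustering settings.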

Additional observations from a re-analysis of the deposited data

Results flagged for a closer look

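Gstt1 had a signal in tumour-gated cells of the other model, which no comparison above uses. In the treated T11-Apobec library it was at 18.5 CPM (11.5 to 28.3; 21 UMIs, seen in 17 of 59 cells, 4 of which had 2 UMIs), against 1.10 CPM (0.30 to 2.82; 4 UMIs, in 4 of 211 cells) in the untreated T11-Apobec library. Each is 1 library, so the difference has no replicate check, and treatment and library cannot be told apart. No T11-Apobec cell reached the 5 UMIs of the rule.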

How the results depend on the processing

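No paired analysis was possible because the labels give no replicate numbers and each group is 1 library; for the same reason no replicate could be left out. Of 873 alternative values over 117 results, 708 kept their direction and call or size, 128 moved, 23 lost their call and 14 reversed; the causes were not tested. The share of tumour-gated cells that are members was 89.2% with a floor of 10000 UMIs per cell, 92.1% with a Gstt1 floor of 3 UMIs and 71.1% with one of 10. Genes called lower numbered 878 with every cell thinned to 5000 UMIs and 1053 when low means 0 Gstt1 UMIs. Among cells with at most 2 G2/M UMIs after thinning, an alternative chosen after seeing the data, 526 genes were higher and 403 lower, so 56.6% of calls were higher, against 44.9% in the report. At a fold of 2, 639 genes were higher, 34.6% of calls. Lists with a median of at least 1.5-fold numbered 20, against 11 after thinning, 10 in cells with at most 2 G2/M UMIs and 13 with genes of 200 or more UMIs. Of the 24 named genes 12 were called over the Cldn4-cluster low cells (chosen after seeing the data). Clustering at Leiden resolution 1 gave 11 states. Every setting tried gave 4 to 11, with 54 to 61 cells in the state highest in Cldn4. The other states were less stable. The adjusted Rand index with the main states, which is 1 for the same grouping, was 0.55 after thinning and 0.58 at resolution 1. It was 0.62 at resolution 0.3, 0.65 with the highest Scrublet scores removed, 0.74 without the cell cycle lists and 0.83 with 30 neighbours. List medians that reversed were those of the IGF axis (0.32 thinned, 1.17 with at most 2 G2/M UMIs, 0.13 over the Cldn4 cluster), extracellular matrix (1.04 with low at 0 UMIs, 0.73 with at most 2 G2/M UMIs, 1.12 over the Cldn4 cluster), EGF family (0.17 with low at 0, 0.25 with at most 2 G2/M UMIs), fibroblast markers (2.02 with low at 0, 0.95 with at most 2 G2/M UMIs, 2.32 over the Cldn4 cluster), interferon-gamma response (-0.016) and chemokines (0.88), both with at most 2 G2/M UMIs. Krt19 reversed to 3.12 over the Cldn4 cluster, where low cells had 0 UMIs, so that value is no bound. The 92 low cells, with 1107490 UMIs against 37353800 in members, limit the precision of these ratios.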
